A study of Mus musculus with 12 samples.

Results

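The myelin genes of mature oligodendrocytes described here are Mbp, Mog, Mag, Mobp, Cnp, Cldn11, Mal, Ermn and Opalin, a list of 9 genes matched by symbol to the Ensembl identifiers of the expression table, which holds 17416 genes. All 9 were found, and all 9 passed the filter on low read counts. Their levels were compared among lateral habenula samples of defeated mice that were stress-susceptible (4 libraries), defeated mice that were stress-resilient (4 libraries) and mice that were not defeated (4 libraries). All mice were C57BL/6 and 9 weeks old, with no transgene or drug named in the labels. Tissue was punched from vibratome slices of 500 µm, and each library was made from 100 pg of RNA with a SMART-Seq v4 kit, so a library holds all cell types of the punch. The labels do not say in words that each library is 1 mouse, but the deposited social avoidance values carry mouse identifiers that match the library names. The p-values set differences against the spread between these libraries.

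Oligodendrocytes wrap axons of the central nervous system in compacted layers of membrane. The proteins of that sheath sit in different places: some seal the cytoplasmic faces of the membrane, some stand at the surface that touches the axon or at the outermost surface, and some keep cytoplasm-filled channels and loops open. The genes of these proteins are switched on late in oligodendrocyte maturation under the transcription factors SOX10 and MYRF. The lateral habenula, an epithalamic nucleus that carries aversive signals, is crossed by myelinated fibres, including those that gather into the fasciculus retroflexus.

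Library depth ran from 33302292 to 47737054 reads over the genes of the table. The 9 genes were counted with ease at that depth: the least abundant, Cldn11, had 796 to 1968 reads per library and the most abundant, Mbp, 163541 to 399190. Reads were amplified without molecular identifiers, so counting error alone understates the error of a library. Libraries were not equally alike. Non-defeated replicate 4, resilient replicate 4 and non-defeated replicate 3 had the lowest mean correlations with the other libraries (0.932, 0.933 and 0.935), where the remaining libraries had 0.940 to 0.953. All 7 lateral habenula markers looked up were measured. Their summed level was 1416 to 1802 CPM in susceptible, 1128 to 2069 in resilient and 1457 to 1736 in non-defeated libraries. Gap43 made up the largest part, averaging 953, 947 and 901 CPM in the same groups. No other tissue was sampled, so these sums do not test the tissue label. Among these markers Gpr151, a habenular G-protein-coupled receptor, averaged 386 ± 17.0, 485 ± 218 and 392.1 ± 140.4 CPM in susceptible, resilient and non-defeated libraries (SD, n = 4 each). Of 6 Schwann cell markers, the myelinating cells of peripheral nerve, 2 were measured and 4 were not analysed here. Those 2 were Pmp22, which many cell types express, at 61.8 to 80.6 CPM by group mean, and Ncmap at 3.17 to 4.76 CPM.

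Upstream sequences are shown for 5 of the genes because these genes take different places in the results: Mog and Opalin had the closest correlation across libraries, Mag and Cnp carry, like Mog, a match to the MYRF letters (CTGGCAC in Mag and Cnp, CTGGTAC on the opposite strand in Mog), and Cldn11, whose level separated resilient libraries from the others, carries none of the letters searched. Mal and Ermn, whose sequences are not shown, carry none of them either, and their groups overlapped. The sequences come from RefSeq (GRCm38.p6), which held an entry for 8 of the 9 genes. Each is written 5′ to 3′ on the strand of the gene and covers bases -250 to -51 before the annotated start, namely chr17:37023449-37023648 (minus strand) for Mog, chr19:41077164-41077363 (minus strand) for Opalin, chr7:30914914-30915113 (minus strand) for Mag, chr11:100574689-100574888 (plus strand) for Cnp and chr3:31149670-31149869 (plus strand) for Cldn11. Capitals mark matches on either strand to the letters CTGGCAC or CTGGTAC, a core of the MYRF motif, and to ACAAAG, a core of the SOX motif.
Mog: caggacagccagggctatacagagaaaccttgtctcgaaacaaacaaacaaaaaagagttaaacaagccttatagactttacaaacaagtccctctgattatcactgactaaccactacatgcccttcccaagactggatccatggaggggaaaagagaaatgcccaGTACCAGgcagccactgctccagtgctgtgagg
Opalin: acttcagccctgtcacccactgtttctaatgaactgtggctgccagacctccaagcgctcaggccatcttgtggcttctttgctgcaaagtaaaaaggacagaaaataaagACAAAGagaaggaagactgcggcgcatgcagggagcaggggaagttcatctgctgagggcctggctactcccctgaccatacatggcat
Mag: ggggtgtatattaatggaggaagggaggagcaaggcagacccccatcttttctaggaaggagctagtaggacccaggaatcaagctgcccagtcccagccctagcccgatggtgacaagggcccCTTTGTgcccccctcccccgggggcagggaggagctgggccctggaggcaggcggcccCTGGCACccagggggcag
Cnp: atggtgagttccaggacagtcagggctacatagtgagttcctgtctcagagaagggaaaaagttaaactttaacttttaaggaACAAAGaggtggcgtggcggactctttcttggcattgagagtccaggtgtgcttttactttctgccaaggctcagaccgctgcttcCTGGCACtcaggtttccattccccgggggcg
Cldn11: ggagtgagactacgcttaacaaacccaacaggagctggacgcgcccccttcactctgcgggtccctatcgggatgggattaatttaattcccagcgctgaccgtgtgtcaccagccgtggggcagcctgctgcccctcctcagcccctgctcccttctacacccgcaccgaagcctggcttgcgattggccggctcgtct
Over the full 250 bases upstream, the MYRF letters were found in 3 of 8 genes, at -83 in Mog, -68 in Mag and -81 in Cnp, against 5.81% of 27025 mouse promoters of the same length. RefSeq held 3 entries for Mag, of which 1 was searched. In Mag, Mobp and Cnp a part of the 250 bases lies in GENCODE exons. The SOX letters were found in 4 of 8 genes, Mag, Mobp, Cnp and Opalin, against 16.7% of promoters, and Mobp held 6 copies. TATAAA, searched on the strand of the gene, was found in 0 of 8 genes against 8.12% of promoters. A match is a description of the letters and says nothing about binding, which was not measured.

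The 9 genes lie on 8 chromosomes of the mouse genome (GRCm38). Mbp (ENSMUSG00000041607) spans chromosome 18, 82475146 to 82585637, and Mobp (ENSMUSG00000032517) chromosome 9, 120149707 to 120181484, both on the plus strand, as do Cnp (ENSMUSG00000006782) on chromosome 11, 100574904 to 100591729, and Cldn11 (ENSMUSG00000037625) on chromosome 3, 31149920 to 31164324. On the minus strand lie Mog (ENSMUSG00000076439) on chromosome 17, 37010743 to 37023398, Mag (ENSMUSG00000036634) on chromosome 7, 30899176 to 30914873, Opalin (ENSMUSG00000050121) on chromosome 19, 41061710 to 41077113, and the chromosome 2 genes Mal (ENSMUSG00000027375), 127633226 to 127656695, and Ermn (ENSMUSG00000026830), 58045113 to 58052864. Exons of Cnp share 154 bases with Dnajc7 on the opposite strand, exons of Ermn 237 bases with Galnt5 on the opposite strand and exons of Mobp 79 bases with Gm38642 on the same strand. Use of strand in the counting is not given in the sources used here, so reads from those stretches cannot be told apart. The Mbp locus also gives rise to the longer golli transcripts, which a count per gene does not separate.

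Per kilobase of exon, averaged over all libraries, the RNAs of the basic proteins of compact myelin came first. The length joins all annotated exons of a gene (8469 bases for Mbp, 6849 for Mobp). A gene whose main transcripts are shorter than that stands too low, so the order is approximate. Mbp, whose cytosolic protein binds the inner faces of the membrane together, had the highest level at 851.6 CPM per kilobase in susceptible, 788.0 in resilient and 607.1 in non-defeated libraries. Mobp, a small basic protein of the same dense line, followed at 244.0 CPM per kilobase over all libraries, then Cnp at 224.2, Mog at 189.9, Mal at 163.5 and Mag at 110.3. In non-defeated libraries alone Cnp (229.9) stood above Mobp (218.8), while in both defeated groups Mobp stood above Cnp. Ermn at 48.5, Opalin at 39.8 and Cldn11 at 17.2 CPM per kilobase were lower. Over the 12 libraries the ranges of Mbp and Mobp did not meet, nor did those of Mag (68.5 to 155 CPM per kilobase) and Ermn (32.2 to 60.9), while all other neighbours in that order overlapped. Mbp ranked 30 and Cldn11 3241 among 17097 genes with an exon length. Together the 9 genes summed to 7533 to 14100 CPM with TMM scaling, of which Mbp alone made up 54.6% to 65.7%.

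The sum over the 9 genes ran from 9914 to 14100 CPM in susceptible libraries (11580 ± 1780, SD, n = 4), from 8671 to 12070 CPM in resilient libraries (10550 ± 1600) and from 7533 to 10820 CPM in non-defeated libraries (9014 ± 1700). The groups overlapped in this sum, and since Mbp dominates it the sum says little of the other genes. In a bulk sample a lower sum can come from fewer oligodendrocytes or from less myelin RNA per cell, and these cannot be told apart here.

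**Figure D1:**
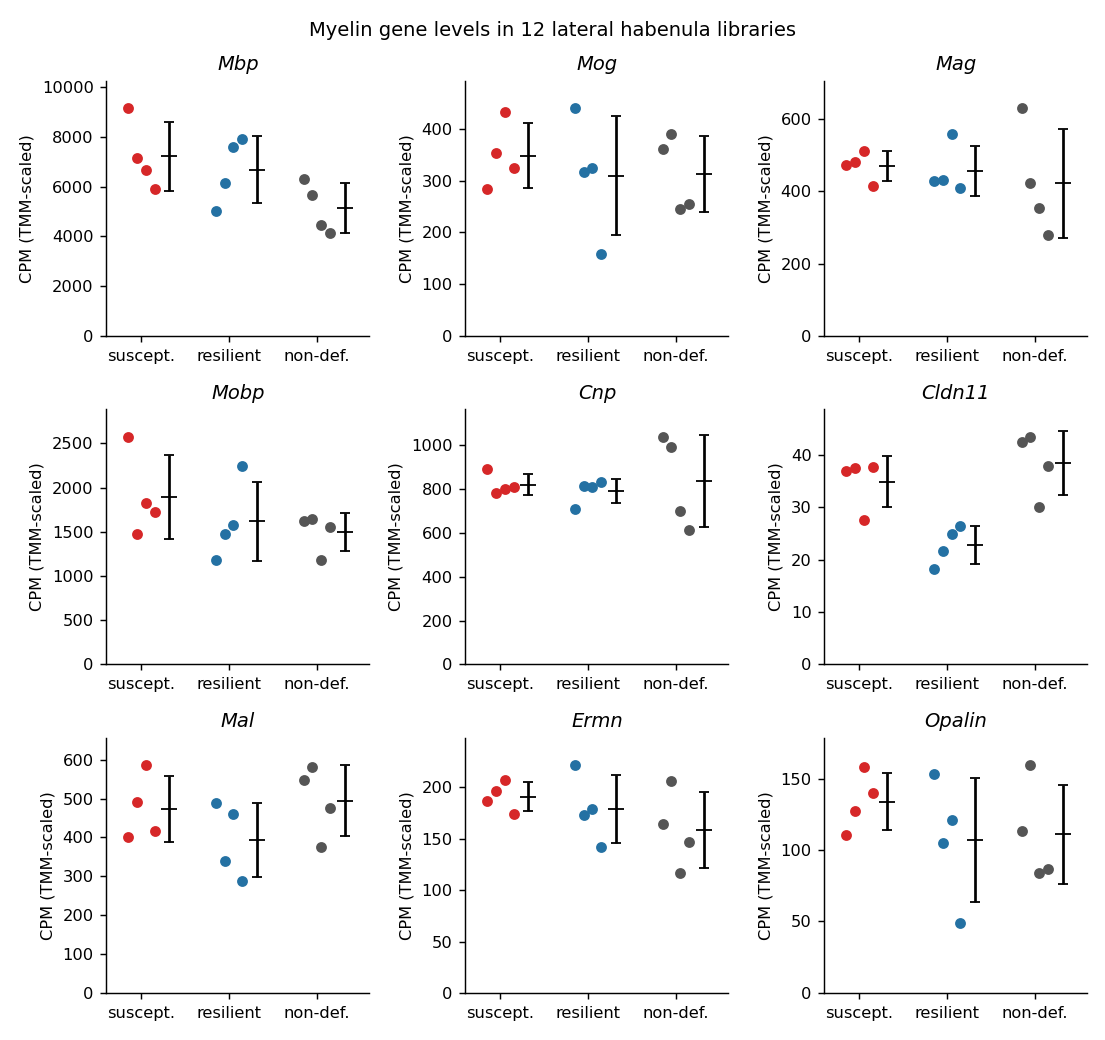
Level of each of the 9 myelin genes in CPM with TMM scaling (vertical axis, starting at 0) in 4 susceptible, 4 resilient and 4 non-defeated libraries, one point per library in replicate order, with the group mean and SD as a bar to the right of the points. Only Cldn11 shows a group, the resilient one at 18.22 to 26.49 CPM, that lies wholly below the other groups.

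Of the proteins that seal the membrane, Mbp stood at 9139, 7156, 6674 and 5881 CPM in susceptible libraries, at 5037, 6127, 7603 and 7926 CPM in resilient libraries and at 6299, 5672, 4447 and 4148 CPM in non-defeated libraries (replicates 1 to 4). Here 3 of the 4 susceptible libraries lay above every non-defeated library, and susceptible replicate 1 was the highest of all. Mobp had 2573, 1472, 1826 and 1719 CPM in susceptible, 1176, 1469, 1579 and 2240 CPM in resilient and 1624, 1640, 1180 and 1551 CPM in non-defeated libraries. Its highest values were in susceptible replicate 1 and resilient replicate 4, and the groups overlapped. Mal, a proteolipid of lipid-rich membrane domains, had 401.8, 490.2, 585.7 and 416.5 CPM in susceptible, 488.0, 338.5, 460.6 and 288.2 CPM in resilient and 547.6, 581.1, 375.8 and 474.9 CPM in non-defeated libraries.

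Cldn11, the claudin of the tight junction strands between myelin layers, had 37.00, 37.42, 27.53 and 37.74 CPM in susceptible, 18.22, 21.72, 24.98 and 26.49 CPM in resilient and 42.55, 43.46, 30.01 and 37.84 CPM in non-defeated libraries. Every resilient library lay below every library of the other groups, and the nearest value above the resilient range was that of susceptible replicate 3. It is also the member with the fewest reads.

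Of the proteins on the surfaces of the sheath, Mog, an immunoglobulin-family protein of the outermost layer, had 283.0, 354.1, 432.4 and 323.9 CPM in susceptible, 439.4, 315.7, 324.8 and 159.2 CPM in resilient and 360.8, 390.4, 244.6 and 255.6 CPM in non-defeated libraries. Resilient libraries held both its highest value, in replicate 1, and its lowest, in replicate 4. Opalin, a transmembrane glycoprotein of oligodendrocytes, had 110.3, 127.3, 157.8 and 139.8 CPM in susceptible, 153.3, 105.2, 120.8 and 48.8 CPM in resilient and 113.5, 159.3, 84.2 and 86.7 CPM in non-defeated libraries. Resilient replicate 4 was again the lowest. Mag, the sialic acid-binding lectin of the membrane that faces the axon, had 473.3, 479.6, 511.4 and 413.4 CPM in susceptible, 427.9, 430.8, 558.7 and 407.9 CPM in resilient and 629.2, 423.8, 355.1 and 278.8 CPM in non-defeated libraries. The non-defeated libraries held both extremes of Mag.

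Of the proteins of the cytoplasmic channels and cytoskeleton, Cnp, a cyclic nucleotide phosphodiesterase that keeps cytoplasm between myelin layers, had 892.0, 781.7, 799.1 and 809.2 CPM in susceptible, 709.3, 814.2, 807.9 and 831.8 CPM in resilient and 1039, 993.2, 699.9 and 614.6 CPM in non-defeated libraries. The defeated libraries lay within the range of the non-defeated ones. Ermn, which encodes ermin, an actin-binding protein of mature oligodendrocytes, had 186.4, 196.5, 207.5 and 173.7 CPM in susceptible, 221.5, 173.1, 178.7 and 141.8 CPM in resilient and 164.3, 206.2, 117.1 and 147.0 CPM in non-defeated libraries. Its lowest value was in non-defeated replicate 3, the library in which all 9 genes lay below their own means.

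The spread of single genes within groups differed. The within-group SD of log2(CPM + 1), the quantity tested throughout, was lowest for Cldn11 (0.23) and Cnp (0.23) and highest for Opalin (0.49) and Mog (0.43). Among 2176 genes averaging over 100 CPM the median of that SD was 0.27, and Opalin and Mog stood at percentiles 91.8 and 87.5 of it. From the lowest to the highest library Opalin differed 3.27-fold and Cnp 1.69-fold. Resilient replicate 4 stood at -1.18 (Opalin) and -0.97 (Mog) from the gene means. It held the lowest value of both genes and widened their spread.

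Across the 12 libraries the genes did not vary as one block. Of the 6 pairs among Mog, Opalin, Ermn and Mal, 5 passed and Mal with Ermn did not (r = 0.585, permutation test, adjusted p = 0.18). Mbp with Mobp and Mag with Cnp passed too, and no pair with Cldn11 did. Of 36 pairs, 27 had a positive Pearson correlation of log2 levels, with a median r of 0.315, and 7 passed an adjusted p of 0.05 in a permutation test (100000 resamples, 2-sided, Benjamini-Hochberg over 36 pairs). Spearman's rho passed for 5 pairs. The share of passing pairs among other genes of these libraries was not computed, so the counts do not mark a trait of myelin genes.

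**Figure D2:**
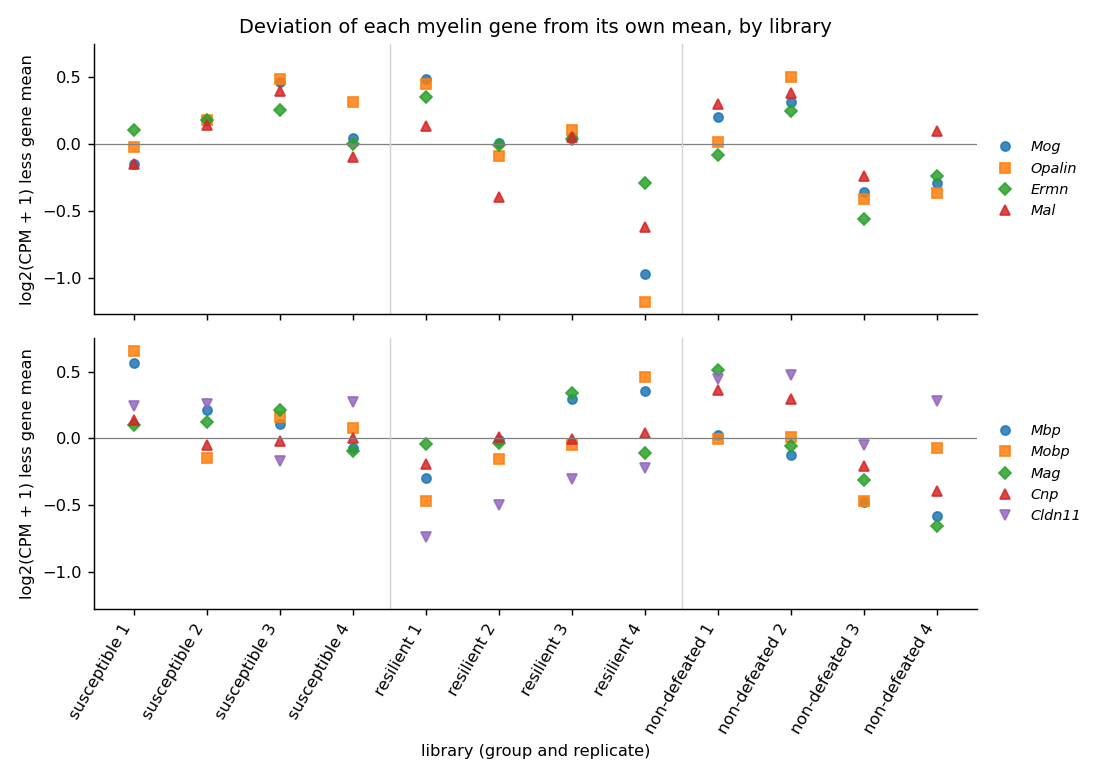
Deviation of each gene's log2(CPM + 1) from its own mean over 12 libraries (vertical axis), by library (horizontal axis), with Mog, Opalin, Ermn and Mal in the upper panel and the other 5 genes in the lower one. In resilient replicate 4 Mog and Opalin lie 0.97 and 1.18 below their means while Mbp and Mobp lie 0.36 and 0.46 above theirs.

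The closest pair was Mog with Opalin, at r = 0.963 and rho = 0.902 (permutation tests, adjusted p = 0.00036 and 0.0072, n = 12 libraries). Without the 2 libraries farthest from the median of Mog, r was 0.903, and for deviations from the group means it was 0.968. The Mog and Opalin pair passed in 12 of 12 recalculations that left out 1 library. Mog with Mal reached r = 0.815 and rho = 0.832 (permutation tests, adjusted p = 0.0198 and 0.0133), and 0.708 without the 2 farthest libraries. Mog with Ermn had r = 0.788 and rho = 0.846 (adjusted p = 0.0198 and 0.0126), and 0.819 without the 2 farthest. Ermn with Opalin had r = 0.792 and rho = 0.881 (adjusted p = 0.0198 and 0.0072), and 0.865 without the 2 farthest. Mal with Opalin had r = 0.782 and rho = 0.783 (adjusted p = 0.0198 and 0.0294), and 0.606 without the 2 farthest. All pairs share the libraries, their depth and their scaling. Resilient replicate 4 weighs most on the pairs with Mal: without it Mog with Mal had r = 0.667 (adjusted p = 0.136) and Mal with Opalin 0.601 (adjusted p = 0.23), while Ermn with Opalin stood at 0.881 (adjusted p = 0.00348).

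Mbp with Mobp had r = 0.748 (permutation test, adjusted p = 0.0315) and rho = 0.629 (adjusted p = 0.161), and r was 0.761 without the 2 libraries farthest from the median of Mbp. That pair passed in 8 of 12 recalculations that left out 1 library. Mag with Cnp had r = 0.722 (adjusted p = 0.0494) and rho = 0.406 (adjusted p = 0.433), and r was 0.227 without the 2 libraries farthest in Mag, so it rests on those libraries. Mbp had r = -0.113 with Mog, -0.069 with Opalin and -0.192 with Mal, and Mobp had -0.367 with Mog, none of which passed. Without the 2 libraries farthest in Mbp its values were -0.255, -0.266 and -0.109 in that order. Mobp with Mog turned to 0.212 without the 2 libraries farthest in Mog, so its negative r rests on those libraries. Cldn11 had r between -0.118 and 0.394 with the other 8 genes, and none passed. For deviations from the group means its r was 0.655 with Mbp, 0.605 with Mobp and 0.56 with Cnp (permutation test, adjusted p = 0.0805, 0.116 and 0.167). In the same setting Mal with Ermn had r = 0.865 (permutation test, adjusted p = 0.0012) and Mbp with Cnp 0.764 (adjusted p = 0.0155), pairs that did not pass on the levels themselves. Without all 3 libraries of lowest mean correlation, 9 libraries remained, and by exact enumeration no pair passed, with Mog and Opalin at r = 0.801 (exact permutation test, adjusted p = 0.164).

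**Figure D3:**
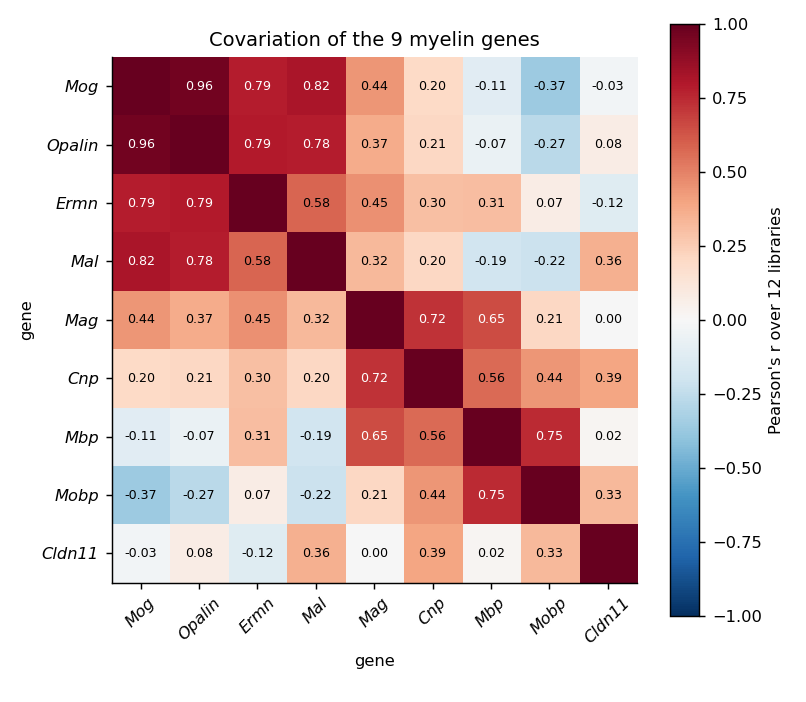
Pearson correlation of log2(CPM + 1) over 12 libraries for each pair of the 9 myelin genes, on a colour scale from -1 to 1 with the value printed in each cell. Mog, Opalin, Ermn and Mal have r among themselves of 0.58 to 0.96, and Mbp with Mobp reaches 0.75.

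A score for the 9 genes, the mean of their log2 levels less each gene's own mean, was 0.137 ± 0.069 in susceptible, -0.097 ± 0.146 in resilient and -0.041 ± 0.296 in non-defeated libraries (SD, n = 4 each). The susceptible libraries lay close together at 0.051 to 0.212. The non-defeated ones ranged from -0.342 in replicate 3 to 0.228 in replicate 2, and resilient replicate 4 stood at -0.283. The 3 lowest scores belonged to the same 3 libraries that had the lowest mean correlations over all genes. With them left out, the mean score was -0.035 over 3 resilient and 0.213 over 2 non-defeated libraries, so that the susceptible mean, which keeps its 4 libraries, lay below the non-defeated mean. Among the 8 genes most like this score, of 14700 genes averaging at least 1 CPM, were Gpm6b, a membrane proteolipid gene (r = 0.911 over 12 libraries), Fads1, a fatty acid desaturase gene (0.890), Tmem125 (0.888), Fa2h, which makes the hydroxylated fatty acids of myelin lipids (0.888), Plekhb1 (0.877), Gja1, the connexin of astrocytes (0.861), and Sirpa (0.860). The median r over the 14700 genes was 0.007, and 27 genes exceeded 0.8. These r describe the same libraries and carry no test. The members' own r with the score ran from 0.290 for Mobp to 0.775 for Ermn.

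Susceptible and non-defeated mice were compared to see whether habenular myelin transcripts differ in defeated mice that avoid others. None of the 9 genes passed the test. Mbp came nearest, at 7212 ± 1388 CPM in susceptible and 5141 ± 1015 CPM in non-defeated libraries (SD, n = 4 each), 1.41-fold higher (95% interval 1.07 to 1.85). Mobp, Ermn and Opalin had fold values of 1.25, 1.23 and 1.24 with intervals that include 1, and Cnp had 1.004 (0.789 to 1.28). For the 9 genes 7 log2 fold changes were above 0, with a median of 0.22. Of all genes tested 52.2% were above 0, with a median of 0.01. The 9 genes share the libraries and partly vary together, so their signs are not separate observations.

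By limma-trend on log2(CPM + 1), 0 of 9 genes passed a Benjamini-Hochberg adjusted p of 0.05 over 17111 genes, of which 0% were called. At an unadjusted p under 0.05 there was 1 member, Mbp, against 3.54% of all genes, and 0 members had groups that did not overlap, against 2.22%. The log2 fold change of Mbp was 0.49 ± 0.18 (SE; limma, unadjusted p = 0.0181, adjusted p = 0.998). It was 0.37 without susceptible replicate 1 and 0.25 with the 3 libraries of lowest mean correlation left out, and that exclusion took the median over the 9 genes to -0.12. The edgeR quasi-likelihood test, DESeq2 and voom with quality weights called 0 of the 9 genes, with DESeq2 calling 23 genes in all and the others 0.

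**Figure D4:**
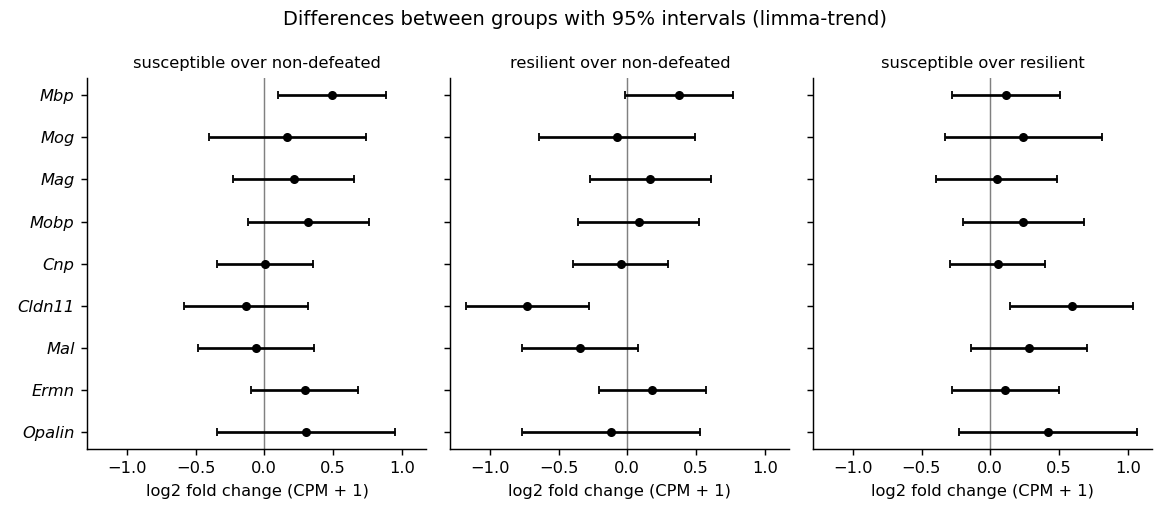
Log2 fold change on the scale of CPM + 1 (horizontal axis) with its 95% interval for each of the 9 myelin genes in the 3 comparisons, from limma-trend over 12 libraries. The intervals of Mbp (susceptible over non-defeated) and of Cldn11 (resilient over non-defeated, susceptible over resilient) do not include 0 before adjustment over all genes.

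Resilient and non-defeated mice were compared to see what differs after defeat in mice that do not avoid others. None of the 9 genes passed here either. Cldn11 averaged 22.9 ± 3.67 CPM in resilient and 38.5 ± 6.15 CPM in non-defeated libraries (SD, n = 4 each), a fold of 0.605 (95% interval 0.443 to 0.826). Mbp had a fold of 1.30 (0.987 to 1.70) and Mal one of 0.789 (0.588 to 1.06), so that single myelin genes stood on both sides of 1. The counts were 4 above and 5 below 0, with a median log2 fold change of -0.05, where 52.8% of all genes were above 0.

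Of the 9 genes 0 passed by limma-trend, against 0.00584% of all genes. One member, Cldn11, had an unadjusted p under 0.05, against 7.14% of all genes, and was the 1 member whose groups did not overlap, against 3.66%. Its log2 fold change was -0.73 ± 0.21 (SE; limma, unadjusted p = 0.00375, adjusted p = 0.521), and it ran from -0.84 to -0.62 when single libraries were left out. Over the 9 libraries without the 3 of lowest mean correlation it was -0.97, and that of Cnp was -0.39, against -0.05 over all 12 libraries. DESeq2 gave Cldn11 an adjusted p of 0.0543, and over all alternatives its adjusted p ran from 0.0543 to 1. The median over the 9 genes turned to 0.21 without resilient replicate 4. Both comparisons share the non-defeated libraries.

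Susceptible and resilient mice were compared to see what separates defeated mice that avoid others from those that do not. All 9 log2 fold changes were above 0, with a median of 0.24, and none of the 9 passed. Of all genes 47.9% were above 0, with a median of -0.02. Here too the signs of genes that share libraries are not separate observations. Cldn11 averaged 34.9 ± 4.94 CPM in susceptible and 22.9 ± 3.67 CPM in resilient libraries (SD, n = 4 each), a fold of 1.51 (95% interval 1.11 to 2.06). Opalin had 1.34 (0.855 to 2.10), Mal 1.22 (0.907 to 1.63), Mog 1.18 (0.797 to 1.75), Mobp 1.18 (0.871 to 1.60), and Mbp, Ermn, Cnp and Mag had 1.03 to 1.08. The intervals of those 8 genes include 1, which leaves room for differences of the sizes given and does not show equal levels.

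By limma-trend 0 of the 9 genes passed, against 0.0468% of all genes. Cldn11 was the 1 member with an unadjusted p under 0.05, against 3.51% of all genes, and the 1 member whose groups did not overlap, against 2.45%. Its log2 fold change was 0.59 ± 0.21 (SE; limma, unadjusted p = 0.0133, adjusted p = 1.0). Without resilient replicate 4 the median over the 9 genes was 0.09, and Mog turned to -0.04. Without resilient replicate 1, Mbp turned to -0.0175 and Cnp to -0.0035. This comparison shares its libraries with the other 2, so the shift of Cldn11 against both groups rests on the same 4 resilient libraries.

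Library titles carry a letter, H or N, whose meaning the labels do not state. All non-defeated libraries carry H, all resilient ones N, and the susceptible group has 2 of each, so the letter and the resilient against non-defeated difference cannot be told apart within letters. Among H libraries, susceptible replicates 1 and 2 averaged 8148 CPM of Mbp against 5141 CPM in the 4 non-defeated ones, a log2 difference of 0.67, and both lay above all 4. Among N libraries, susceptible replicates 3 and 4 averaged 32.6 CPM of Cldn11 against 22.9 CPM in the 4 resilient ones, a difference of 0.49, and both lay above all 4. Both separations follow from the library values given above, so they are no separate check on the letter. Every other member overlapped within its letter, and the share of all genes that separate this way was not computed. With the letter as a term, the log2 fold change of Cldn11 in resilient over non-defeated libraries was -0.53 ± 0.37 and that of Mbp 0.74 ± 0.31 (SE), against 0.37 ± 0.18 without the term. Within letters the median over the 9 genes was 0.14 for susceptible over non-defeated and 0.17 for susceptible over resilient, with 7 and 8 of 9 above 0.

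In the authors' deposited table, whose likelihood ratio test spans the 3 groups, Cldn11 had p = 0.0196 and FDR = 0.712, and the other 8 genes had an FDR near 1. The log2 ratio of Cldn11 for resilient over non-defeated in that table was -0.75. The authors' deposited table also holds the correlation of each gene with an interaction ratio scored in a social avoidance test, which ran from -0.51 for Opalin (p = 0.0935 as deposited) and -0.47 for Mog to 0.27 for Cnp across the 9 genes.

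Other genes of the oligodendrocyte lineage gave the same outcome, 0 genes passing in any list and comparison by limma-trend. Apart from Sox10 and Myrf, the genes named below were picked for the smallest limma p of their list. Each is shown in the pair of groups that gave that p, so these values do not stand for their lists. Their unadjusted p ran from 0.00802 (Gjc3) to 0.387 (Kcna1) by limma. Of 17 other myelin membrane genes, 14 were above 0 in susceptible over non-defeated (median log2 fold change 0.14), 8 in resilient over non-defeated (-0.01) and 14 in susceptible over resilient (0.17). Gjc3, a connexin gene of oligodendrocytes, averaged 91.6 ± 12.7 CPM in resilient and 129 ± 12.5 CPM in non-defeated libraries (SD, n = 4 each), with no overlap and a limma log2 fold change of -0.49 ± 0.16 (SE, adjusted p = 0.564). Tspan2, a tetraspanin of myelin, averaged 295 ± 28.9 CPM in resilient and 378 ± 67.1 CPM in non-defeated libraries.

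Among 14 cytoplasmic and cytoskeletal genes of oligodendrocytes, 8 were above 0 in susceptible over non-defeated (median 0.09), 6 in resilient over non-defeated (-0.06) and 13 in susceptible over resilient (0.10). Carns1, the carnosine synthase gene, averaged 20.6 ± 5.51 CPM in susceptible and 12.3 ± 6.57 CPM in non-defeated libraries. Apod, a lipocalin gene, averaged 255 ± 43.5 CPM in resilient and 330 ± 59.6 CPM in non-defeated libraries, and the protease gene Klk6 28.6 ± 6.95 CPM in susceptible and 20.5 ± 5.60 CPM in resilient ones (SD, n = 4 each). Of 12 genes of myelin lipid synthesis 10, 9 and 8 were above 0 in the same order of comparisons, with medians of 0.14, 0.13 and 0.11. Cers2, the ceramide synthase for very long chains, averaged 173 ± 11.9 CPM in susceptible and 142 ± 36.2 CPM in non-defeated libraries, Elovl7, a fatty acid elongase, 21.6 ± 4.27 CPM in resilient and 31.6 ± 11.4 CPM in non-defeated ones, and Gal3st1, the sulfotransferase that makes sulfatide, 68.1 ± 28.8 and 41.7 ± 15.9 CPM in the same groups.

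**Figure D5:**
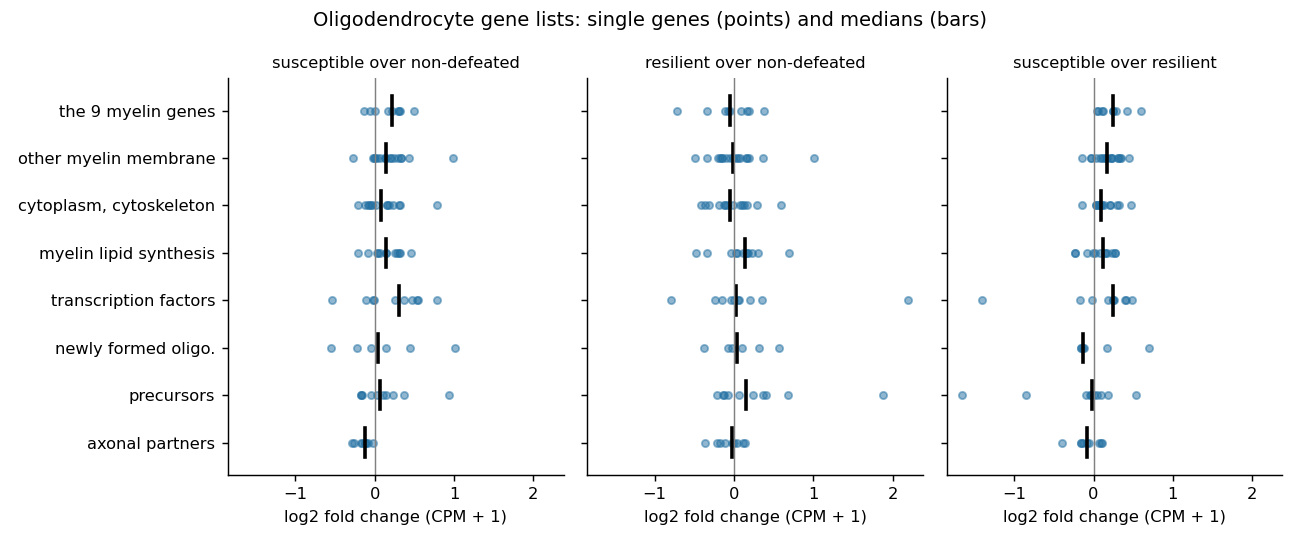
Log2 fold changes on the scale of CPM + 1 (horizontal axis) of single genes (points) and the median (bar) of 8 lists in the 3 comparisons. The medians of the 9 myelin genes are 0.22, -0.05 and 0.24 from left to right, and those of the 9 axonal partners -0.13, -0.03 and -0.08.

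Of 10 oligodendrocyte transcription factor genes, 6 were above 0 in susceptible over non-defeated (median 0.31), 5 in resilient over non-defeated (0.02) and 7 in susceptible over resilient (0.24). Olig2 averaged 36.7 ± 22.9 CPM in resilient and 6.02 ± 3.09 CPM in non-defeated libraries, and Sox8 39.9 ± 17.1 and 64.5 ± 6.83 CPM in the same groups (SD, n = 4 each), at log2 fold changes of 2.19 ± 0.77 and -0.79 ± 0.28 (SE; limma, adjusted p = 0.567 and 0.572). Zfp536, a zinc finger gene, averaged 38.7 ± 9.14 CPM in susceptible and 29.7 ± 10.7 CPM in resilient libraries. For the factors of the 2 motifs shown above, Sox10 averaged 94.7 ± 10.7, 81.8 ± 21.1 and 96.6 ± 22.8 CPM and Myrf 48.2 ± 8.55, 37.8 ± 20.8 and 37.4 ± 22.2 CPM in susceptible, resilient and non-defeated libraries.

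Of 6 genes of newly formed oligodendrocytes, 3, 3 and 2 were above 0 in susceptible over non-defeated, resilient over non-defeated and susceptible over resilient, with medians of 0.05, 0.03 and -0.13. Rras2, a small GTPase gene, averaged 11.98 ± 3.62 CPM in susceptible and 6.15 ± 3.42 CPM in non-defeated libraries, the uncharacterised transcript 9630013A20Rik 10.2 ± 2.44 and 15.3 ± 3.21 CPM in the same groups, and Fyn, a kinase gene of early myelination, 193 ± 44.2 CPM in resilient and 146 ± 67.0 CPM in non-defeated ones. Of 10 precursor genes, 6, 6 and 4 were above 0, with medians of 0.06, 0.15 and -0.02. Pdgfra, the growth factor receptor of oligodendrocyte precursors, averaged 32.3 ± 6.49 CPM in susceptible and 17.2 ± 6.39 CPM in non-defeated libraries (SD, n = 4 each), with no overlap and a limma log2 fold change of 0.93 ± 0.31 (SE, adjusted p = 0.998). C1ql1 averaged 19.9 ± 11.2 CPM in resilient and 5.26 ± 5.59 CPM in non-defeated libraries, and the proteoglycan gene Cspg4 5.64 ± 7.18 CPM in susceptible and 10.3 ± 10.7 CPM in resilient ones. Of 9 genes of the axonal membrane at and around the nodes, 0, 4 and 3 were above 0, with medians of -0.13, -0.03 and -0.08. Among them Cntnap2 averaged 49.0 ± 16.6 CPM in resilient and 61.3 ± 6.53 CPM in non-defeated libraries, the potassium channel gene Kcna1 67.3 ± 7.78 and 82.0 ± 26.5 CPM in the same groups, and the sodium channel gene Scn8a 44.5 ± 17.3 CPM in susceptible and 60.6 ± 24.3 CPM in resilient ones.

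Markers of other cells and of neighbouring tissue were set beside these values, and their part in the myelin gene results was not tested. With the score of the 9 genes, r ran from 0.111 (Slc4a4) to 0.861 (Gja1) for astrocyte markers. It ran from -0.386 (Cx3cr1) to 0.734 (Csf1r) for microglia and from -0.085 (Hbb-bt) to 0.161 (Alas2) for blood markers. Endothelial markers had -0.604 (Pecam1) to 0.332 (Tek) and medial habenula markers -0.556 (Slc18a3) to -0.012 (Chrnb4). Neuron markers had -0.554 (Tubb3) to 0.480 (Nefl) and lateral habenula markers -0.626 (Htr2c) to 0.195 (Gap43). Thalamus markers had -0.399 (Ntng1) to 0.148 (Tnnt1). Choroid plexus and ependyma markers averaging at least 1 CPM had -0.555 (Kl) to 0.032 (Otx2). These r carry no test. Summed blood markers, 5 of 5 measured, ran from 870.9 to 5680 CPM in susceptible, 1030 to 2071 CPM in resilient and 263.0 to 825.3 CPM in non-defeated libraries, the highest in susceptible replicate 1, which also had the most Mbp and Mobp. Endothelial markers, 8 of 8 measured, summed to 36.79 to 95.37 CPM in susceptible, 36.56 to 380.1 CPM in resilient and 51.66 to 70.43 CPM in non-defeated libraries, with the highest value in resilient replicate 4. That library also had the lowest Mog, Mal and Opalin and the lowest lateral habenula sum, although its mean log2 level of the lateral habenula markers less each marker's own mean was 0.255, the next to highest after 0.286 in non-defeated replicate 1. Medial habenula markers, 10 of 10 measured, summed to 222.4 to 335.6, 158.2 to 368.2 and 256.0 to 728.3 CPM in susceptible, resilient and non-defeated libraries, the highest in non-defeated replicate 3, where all 9 myelin genes were below their means. Thalamus markers (8 of 8) summed to 170.9 to 529.2, 233.2 to 292.9 and 247.7 to 493.9 CPM, astrocyte markers (10 of 10) to 3437 to 4316, 3133 to 4279 and 2711 to 4589 CPM, microglia markers (10 of 10) to 261.1 to 400.6, 221.1 to 289.8 and 209.0 to 329.4 CPM, neuron markers (10 of 10) to 5669 to 6191, 5596 to 6806 and 5393 to 6545 CPM, and choroid plexus and ependyma markers (8 of 8) to 24.98 to 126.1, 25.63 to 159.7 and 34.46 to 222.0 CPM in the same groups. Mitochondrially encoded genes took 8.01% to 12.6% of reads in susceptible, 4.04% to 5.13% in resilient and 6.73% to 10.6% in non-defeated libraries. That share was lower in every resilient library, as was Cldn11, than in any other library.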

How the data were processed

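RNA from punched lateral habenula was sequenced in 12 libraries. The submitters' processing notes name featureCounts, edgeR and the build GRCm38 (mm10). Not given in the sources used here are their versions, an aligner and strand use. Per the file headers the library columns are read counts, but the deposited values are CPM plus a constant of 0.006078. With it subtracted, 100% of values in each of the 12 columns were multiples of 1 read (tolerance 0.001 read), which gave whole reads per gene. The recovery rests on that subtraction. Per the file headers the authors also deposited log2 ratios of the groups, a likelihood ratio score, its p-value and FDR, the correlation of each gene with the interaction ratio, and that ratio per mouse. It is not stated what the ratio divides by what.

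A count test was planned for deposited counts, with limma in its place otherwise. As the deposited unit is CPM, the main test was limma-trend (limma 3.58.1, robust) on log2(CPM + 1) with TMM factors from edgeR 4.0.16 in R 4.3.3, with 3 group means over 12 libraries and 9 residual degrees of freedom. The filter (filterByExpr, minimum count 10) left 17111 genes and removed 305, and 1 closing line without a gene was dropped. Benjamini-Hochberg adjusted p under 0.05 over all genes was called, and intervals are 95% from the same fit. Because 1 is added, fold changes of low genes are understated. The procedure was tested on simulated data. Identifiers were matched to GENCODE M21 for 17402 of 17416 genes. Pairwise correlations used 100000 permutations, or exact enumeration below 10 libraries. In each oligodendrocyte or axonal list up to 3 genes with the smallest limma p in any comparison were named, together with the 8 genes most like the mean of the 9 (1 gene that the rule names is not reported here), while Gpr151, Sox10 and Myrf were chosen after their values were seen. The 9 genes, the lists and the alternatives were chosen with earlier results of these data known. Alternatives were RLE size factors, no scaling beyond the library total, the edgeR quasi-likelihood test, DESeq2 1.42.0 and voom with quality weights on recovered reads, other filters, another pseudocount, a fit that was not robust, fits of the compared groups alone, the replicate number as a block, the title letter as a term and leaving out libraries. Replicates of a group were not duplicates of each other (chi-square per degree of freedom of at least 72.2). The same replicate number in different groups does not mark pairs.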

Additional observations from a re-analysis of the deposited data

Results flagged for a closer look

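Among 30 groups of 4 libraries examined (9 genes and their sum in 3 groups), 2 had a library far from the other 3, its distance to the nearest, as a share of the range of the group, being past Dixon's critical value. Chance gives about 1 such group in 20. Mag in resilient replicate 3 stood at 558.7 CPM, above 407.9 to 430.8 CPM in the other resilient libraries, a gap of 0.849 of the range. Cldn11 in susceptible replicate 3 stood at 27.53 CPM, below 37.00 to 37.74 CPM in the other susceptible libraries, a gap of 0.927 of the range. Without it the log2 fold change of Cldn11 was 0.70 in susceptible over resilient (limma, adjusted p = 0.923) and -0.03 in susceptible over non-defeated libraries.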

How the results depend on the processing

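None of the 9 genes passed an adjusted p of 0.05 in any of 675 fold changes recomputed under 25 settings, the smallest being 0.0543 for Cldn11 by DESeq2 in resilient over non-defeated libraries, and 34 of the 675 had another sign than the main value. The median over the 9 genes ran from 0.07 to 0.32 (susceptible over non-defeated), -0.17 to 0.21 (resilient over non-defeated) and 0.09 to 0.27 (susceptible over resilient) without single libraries, and was -0.12 for susceptible over non-defeated without the 3 libraries of lowest mean correlation, an exclusion chosen after seeing the data. Member pairs past the threshold, 7 in the main analysis, numbered 3 with no scaling beyond the library total, 0 without those 3 libraries and 3 to 7 without single libraries, 3 without resilient replicate 1 or 4 and 4 without non-defeated replicate 3 or 4.

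Counts over all genes moved more, and the cause was not tested. In resilient over non-defeated libraries, 1 gene in the main test became 2 with RLE size factors, no scaling, no filter or a mean of at least 1 CPM, 8 by voom, 88 by DESeq2, and 0 by the edgeR quasi-likelihood test, without the robust step, with only the groups compared, with the title letter as a term or without the 3 libraries. In susceptible over resilient libraries, 8 genes became 16 by voom, 38 by DESeq2, 2 without the 3 libraries, 1 with a pseudocount of 0.25, and 0 by the edgeR quasi-likelihood test, without the robust step or with only the groups compared. In susceptible over non-defeated libraries, 0 genes became 23 by DESeq2. Without single libraries the counts ran from 0 to 9 (the highest without resilient replicate 4) and from 0 to 10 (the highest without non-defeated replicate 3), and stayed at 0 in susceptible over non-defeated libraries. With the replicate number as a block the counts were 0 and 0 in resilient over non-defeated and susceptible over resilient libraries. That block pairs nothing by the labels: deviations of same-numbered libraries correlated at -0.203 to 0.134, and 3 of 12 libraries correlated best with their own number.

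Each group holds 4 libraries. Punches mix cell types, strand use is unknown and the title letter is bound up with the resilient group.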
